A study of Mus musculus with 17 samples.

Results

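Bulk RNA-seq of dorsal hippocampus was used to ask what an injection of pathological tau changed in mice that lack Acss2, by comparing 3 male KO Tau libraries (labelled 711, 712 and 713) with 3 male KO PBS libraries (751, 752 and 753). These 6 libraries were chosen by their genotype, treatment and sex labels out of 17 in the series. All 6 came from males with a constitutive Acss2 knockout (ACSS2KO), so both groups lacked the gene from development onward, and both were injected into the right dorsal hippocampus at 6 months of age. The Tau group received sarkosyl-insoluble tau purified from frontal cortex of patients with Alzheimer's disease and the PBS group received phosphate-buffered saline, and tissue was taken 6 months later, after perfusion with paraformaldehyde. The 6 male WT libraries (WT PBS 791, 792 and 793 and WT Tau 771, 772 and 773) shared the fit and served as reference.

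Tau is the microtubule-binding protein whose aggregates accumulate in neurons in Alzheimer's disease, and injected human tau seeds recruit the mouse's own tau, so no transgene is needed. ACSS2 is the enzyme that turns acetate into acetyl-CoA, the donor for histone acetylation, and in neurons it lies largely in the nucleus. Signals pass through the hippocampus from dentate granule cells to CA3 and on to CA1 pyramidal cells, and each of these cell types carries its own marker genes, so a bulk library also reports how much of each field it holds. In such bulk RNA, fewer cells of a type and less RNA per cell cannot be told apart.

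The KO libraries held 15853495 to 21847844 counts, and values are given as CPM, counts scaled by these totals. Acss2 itself was at 3.14, 4.17 and 3.84 CPM in KO PBS 751, 752 and 753 and at 5.74, 3.07 and 4.33 CPM in KO Tau 711, 712 and 713, against 44.0 to 54.6 CPM in the WT libraries, so all 6 matched their genotype label. Markers of dentate, CA1, CA2 and CA3 neurons were present in each library, but in unequal amounts, and the libraries 752, 712 and 713 stood apart from 751, 753 and 711 by genes of neighbouring cortex. Where a list count below moved most with 1 of the libraries, it is also given without that library.

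The spread between replicates was the first feature of both groups. The median standard deviation (SD) of log2 CPM over the 3 libraries of a group was 0.204 in KO PBS and 0.225 in KO Tau, against 0.104 in WT PBS and 0.116 in WT Tau. The common biological coefficient of variation that edgeR estimated was 0.244 in KO PBS and 0.246 in KO Tau, compared with 0.0839 and 0.0918 in the WT groups. Among genes with a group mean of at least 5 CPM, 979 of 11462 (8.54%) in KO PBS and 1049 of 11620 (9.03%) in KO Tau differed more than 2-fold between the highest and lowest replicate, and in WT this held for 0.579% and 0.852%. Both KO groups were thus wider than either WT group, but in KO Tau this rested largely on 711. Without that library the median SD of KO Tau was 0.107. Leaving out 1 library gave 0.0907 to 0.1 in WT Tau, 0.0819 to 0.092 in WT PBS and 0.146 to 0.183 in KO PBS.

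**Figure D1:**
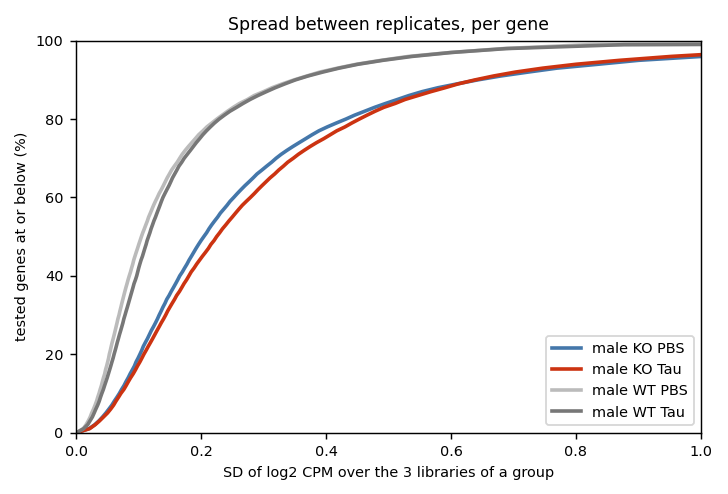
Share of tested genes (y axis, percent) whose SD of log2 CPM over the 3 libraries of a group is at or below the value on the x axis, for the 4 male groups. Both KO curves lie to the right of both WT curves, with median SDs of 0.204 (KO PBS) and 0.225 (KO Tau) against 0.104 and 0.116.

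Libraries did not group by treatment. Pearson correlations of log2 CPM across genes, which are not independent replicates, were 0.960 to 0.987 within KO PBS, 0.958 to 0.987 within KO Tau and 0.953 to 0.985 between them. KO PBS 752 correlated at 0.983 and 0.982 with KO Tau 712 and 713, and at 0.960 and 0.971 with the other two libraries of its own group. The genes that varied were largely shared: of the 500 most variable genes of each KO group, out of 11541, 273 (54.6% of either list) were the same.

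The most variable genes of KO PBS included markers of dentate granule cells. Dsp (desmoplakin, a junction protein enriched in dentate granule cells) was at 88.7, 0.907 and 23.5 CPM in 751, 752 and 753, and Lct at 85.6, 1.21 and 37.3 CPM. Igfn1 was at 0.203, 56.7 and 2.01 CPM and Rspo1, a secreted Wnt agonist, at 0.964, 32.7 and 1.10 CPM. Nts (neurotensin) was at 7.15, 0.181 and 9.93 CPM. In each of these 5 genes library 752 was the extreme one.

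In KO Tau the most variable genes were of 2 kinds. Ttr (transthyretin, the main secreted protein of choroid plexus) was at 229, 42.0 and 3775 CPM in 711, 712 and 713. The choroid plexus transporter Slc4a5 was at 1.39, 0.521 and 22.7 CPM, the water channel Aqp1 at 1.77, 0.573 and 24.5 CPM, and the claudin Cldn2 at 1.26, 0.261 and 16.0 CPM. Library 713 alone carried this signal. By contrast, Igfn1 (1.14, 27.5 and 42.2 CPM) and Dkkl1 (0.694, 23.5 and 18.4 CPM) were low in 711 and high in both 712 and 713.

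Summed over marker lists, the same split was seen. The 15 neocortex markers summed to 516, 2079 and 841 CPM in KO PBS 751, 752 and 753 and to 501, 1910 and 1602 CPM in KO Tau 711, 712 and 713, with 731 to 1194 CPM in WT. The upper-layer gene Cux2 followed this order at 18.9, 121, 42.6, 21.3, 89.5 and 88.6 CPM in the same 6 libraries. The 15 striatal markers summed to 1206 CPM in 752 and to 262 to 349 CPM in the other 5, with Adora2a, the adenosine receptor of striatopallidal neurons, at 29.1 CPM in 752 and 1.42 to 3.60 CPM elsewhere. The 14 choroid plexus markers summed to 5395 CPM in 713 and 321 to 610 CPM in the others, against 224 to 1109 CPM in WT. Cortex, striatum and choroid plexus genes thus varied by library within a treatment.

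Genes of hippocampal neurons also varied within a treatment. The 15 dentate markers summed to 1498, 905 and 808 CPM in KO PBS and 1256, 870 and 1018 CPM in KO Tau, the 10 CA1 markers to 1690, 869 and 1730 CPM and 1548, 1345 and 1343 CPM, and the 10 CA3 markers to 1931, 1198 and 2068 CPM and 1234, 1348 and 1410 CPM. The sums of the 8 CA2 markers were more even, at 370 to 388 CPM and 329 to 343 CPM, but their mean log2 CPM was not. Minus the WT mean, it was 0.16, -0.84 and 0.15 in KO PBS and -0.13, -0.58 and 0.12 in KO Tau. By these sums, library 752 was lowest in KO PBS for CA1 and CA3 and 753 for dentate. No single KO Tau library had the lowest sum for all fields. By mean log2 CPM, where each gene counts equally, 752 was lowest in KO PBS and 712 in KO Tau for each of these fields. For dentate, that mean minus the WT mean was 0.63, -1.25 and -0.54 in KO PBS and 0.25, -0.85 and -0.34 in KO Tau. The dentate marker Prox1, the transcription factor that maintains granule cell identity, was at 61.4, 8.83 and 25.2 CPM in KO PBS and 51.5, 9.59 and 15.1 CPM in KO Tau, and C1ql2 at 171, 4.96 and 55.2 CPM and 118, 25.7 and 37.5 CPM. Fibcd1, a CA1 marker, was at 257, 19.8 and 179 CPM in KO PBS and 190, 21.9 and 69.6 CPM in KO Tau. For these 3 genes the lowest library of each group was 752 or 712. Rfx3, a regulatory factor X family member that has been studied in this model, ran with them at 75.8, 18.2 and 29.7 CPM in KO PBS and 63.8, 29.7 and 30.8 CPM in KO Tau. Between the groups it differed by a log2 fold change of -0.05 (SE 0.44), below that spread (edgeR FDR 0.986).

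**Figure D2:**
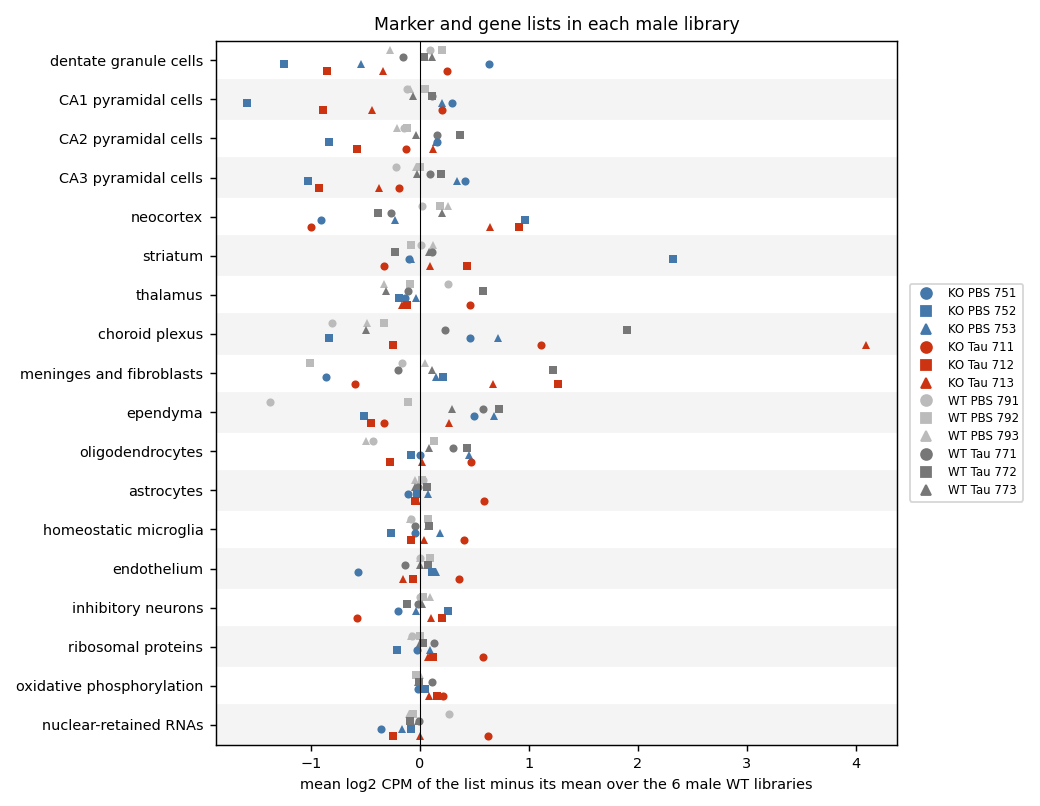
Mean log2 CPM of the genes of each marker or gene list in each male library, minus the mean of that list over the 6 male WT libraries (x axis, log2 units). Each point is a library, with groups in rows of colour within a list and replicates by marker shape. KO PBS 752 stands apart for striatum, KO Tau 713 for choroid plexus, and 752, 712 and 713 lie to the right for neocortex.

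Library 711 differed from the rest in another way. Ribosomal protein genes summed to 14183 CPM in it and to 7897 to 10287 CPM in the other 5 KO libraries, astrocyte markers to 10999 CPM against 6053 to 6970 CPM, oligodendrocyte markers to 8660 CPM against 4320 to 7150 CPM, and nuclear-retained RNAs to 6822 CPM against 2801 to 4280 CPM. For all 4 lists 711 was also above the highest WT library.

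The test of Tau against PBS in KO males called no gene. In the edgeR quasi-likelihood test on the 12 male libraries, 0 of 15098 genes passed a false discovery rate (FDR) of 0.05 (0% called), with a smallest FDR of 0.336. At an unadjusted p under 0.05 there were 1201 genes (7.95%), 534 higher (3.54%) and 667 lower (4.42%) in Tau. limma voom called 0 genes, whereas the DESeq2 Wald test on the same libraries called 37 of 12241 (0.302%), 3 higher (0.0245%) and 34 lower (0.278%). With DESeq2 on only the 6 KO libraries the count was 0. The unadjusted counts also rest on the spread shared with the WT libraries. On only the 6 KO libraries edgeR gave 367 genes at an unadjusted p under 0.05 (155 higher, 212 lower), and many list counts below, which come from the 12 libraries, were lower there. With 1 KO library left out, higher genes ran from 381 (without 751) to 806 (without 712). Lower genes ran from 461 (without 751) to 1221 (without 752). A list count without a library is to be read beside these. In 930 genes (6.16%) all Tau libraries were above all PBS libraries, and in 431 (2.85%) all were below. Overlap, here and below, was read from CPM scaled by total counts alone, whereas the edgeR test also applies TMM factors. These factors were 0.955, 0.971 and 0.988 in KO PBS 751, 752 and 753, and 0.994 or more in KO Tau. CPM without them is thus relatively low in KO PBS, which favours the higher side. Overlap with TMM factors was not tested, so the excess of 930 over 431 does not show a direction.

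The DESeq2 count moved with single libraries, as the bar plot of left-out libraries shows. It was 334 without KO PBS 752 (68 higher, 266 lower), 124 without 753, 84 without KO Tau 713 and 78 without 711, but 4 without 751 and 3 without 712. Of the 37 genes, 31 were called again without 752 and 30 without 753, 18 without 711, 16 without 713, and 2 each without 751 or 712. All 37 kept their sign in the 39 alternatives run. None of the 37 overlapped in CPM between the KO groups, so leaving libraries out could hardly reverse a sign. With edgeR the count stayed at 0 whichever single male library was left out.

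Leaving out 1 library of each KO group, an alternative chosen after seeing the data, gave 0 genes by edgeR in 7 of 9 pairs, 2 genes without 713 and 752, and 1577 genes (10.4%), 647 of them higher (4.25%) and 930 lower (6.11%), without 711 and 752. That last comparison set KO Tau 712 and 713 against KO PBS 751 and 753, which also differed in cortex. Of the 15 neocortex markers, 10 were called higher in it (median log2 fold change 1.33). Of 10 CA3 markers 7 (median -0.87) and of 10 CA1 markers 6 were called lower. The part of tissue composition in the 1577 calls was not tested. Of the 37 genes called by DESeq2 on all libraries, 31 were among them.

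**Figure D3:**
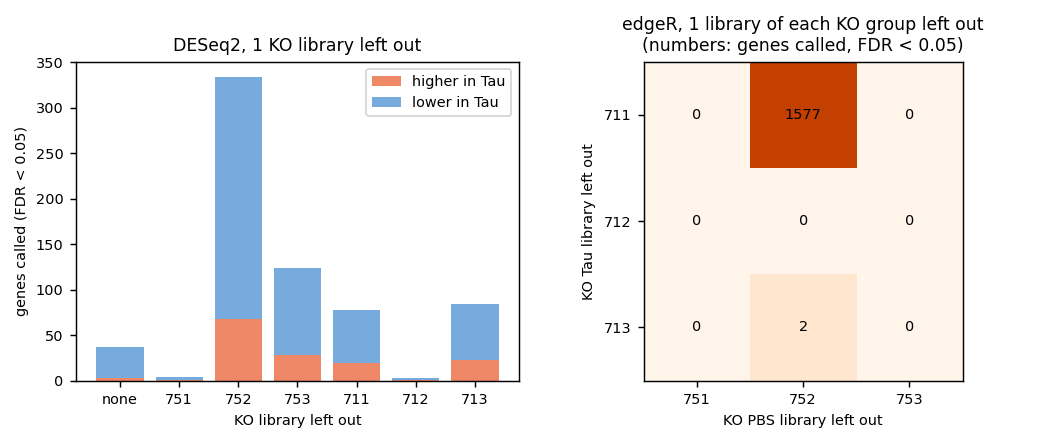
Left, genes called by DESeq2 (FDR under 0.05, y axis) on the male libraries with none or 1 KO library left out, stacked by direction in Tau. Right, genes called by edgeR when 1 KO PBS library (columns) and 1 KO Tau library (rows) are left out together. The left count runs from 3 to 334, and on the right 1577 genes are called without 711 and 752 and 0 to 2 for the other pairs.

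Lower expression under Tau was the larger side of the DESeq2 calls. In each of the 34 lower genes all 3 KO Tau libraries were below all 3 KO PBS libraries, with DESeq2 log2 fold changes from -0.23 to -1.05 (median -0.48). These values chose the genes and so are a description. The male WT mean lay between the KO PBS and KO Tau means in 32 of the 34. All KO Tau libraries were below all 6 WT libraries in 18 of them, and all KO PBS libraries were above all 6 WT libraries in 8.

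Hspa12a (ENSMUSG00000025092.7, GRCm38 chromosome 19, 58795750 to 58943654, minus strand), which encodes an atypical member of the HSP70 family, was at 409, 358 and 357 CPM in KO PBS and 250, 282 and 259 CPM in KO Tau. The groups did not overlap, and the 6 WT libraries fell in the gap between them at 331 to 344 CPM. The log2 fold change was -0.55 (SE 0.09), with an edgeR FDR of 0.352 and a DESeq2 adjusted p of 5.46e-07, the smallest of the DESeq2 calls. It was called in 8 of the 39 alternatives.

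Actn2 (ENSMUSG00000052374.16, chromosome 13, 12269426 to 12340760, minus strand), the alpha-actinin that cross-links actin filaments in dendritic spines as well as in muscle, was at 15.5, 15.2 and 14.0 CPM in KO PBS and 9.65, 8.44 and 8.66 CPM in KO Tau. It had the smallest edgeR p of all tested genes, and its fold change was -0.79 on the log2 scale (SE 0.11), with an edgeR FDR of 0.336 and a DESeq2 adjusted p of 7.98e-05. The WT libraries were at 11.2 to 14.0 CPM, above all 3 KO Tau libraries.

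Dusp5 (ENSMUSG00000034765.6, chromosome 19, 53529109 to 53542431, plus strand), a nuclear phosphatase that switches off ERK and is itself induced by ERK activity, was at 14.3, 10.9 and 18.0 CPM in KO PBS and 6.12, 6.41 and 9.41 CPM in KO Tau. WT libraries were at 15.5 to 19.0 CPM, so KO Tau lay below all of them and KO PBS overlapped them. The log2 fold change was -1.02 (SE 0.20, edgeR FDR 0.550, DESeq2 adjusted p 0.00716).

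Tnfrsf21 (death receptor 6, which takes part in axon degeneration) was at 135, 100 and 119 CPM in KO PBS and 79.6, 85.8 and 84.9 CPM in KO Tau (log2 fold change -0.55, SE 0.11, DESeq2 adjusted p 0.00965). Neto1, an auxiliary subunit of kainate and NMDA receptor complexes, was at 110, 78.6 and 86.5 CPM and at 62.4, 57.1 and 60.7 CPM (-0.66, SE 0.14). Tmem178b was at 26.6, 26.2 and 23.6 CPM and at 17.7, 16.7 and 18.2 CPM (-0.59, SE 0.11). For Tnfrsf21 and Neto1 all WT libraries, at 98.9 to 111 and 73.4 to 96.7 CPM, were above all KO Tau libraries.

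Nefl, the light neurofilament subunit of axons, was at 579, 628 and 605 CPM in KO PBS and 437, 438 and 499 CPM in KO Tau (log2 fold change -0.44, SE 0.10), and Luzp1, an actin-associated protein, at 161, 197 and 168 CPM and 108, 122 and 140 CPM (-0.55, SE 0.11). Ky (kyphoscoliosis peptidase) was at 4.92, 3.63 and 4.71 CPM and 2.46, 1.67 and 2.54 CPM (-1.04, SE 0.21). Map3k13, the leucine zipper-bearing kinase of axon injury signalling, was at 27.1, 25.0 and 26.1 CPM and 20.9, 20.1 and 21.1 CPM (-0.38, SE 0.08), and Zswim6 at 34.9, 30.6 and 30.9 CPM and 26.1, 20.7 and 22.1 CPM (-0.53, SE 0.11). The DESeq2 adjusted p of these 5 genes was between 0.0226 and 0.0379.

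Several others of the 34, chosen for mention after their values were seen, act in axonal excitability and ion transport. Scn8a, the sodium channel of the axon initial segment, was at 508, 565 and 454 CPM in KO PBS and 361, 360 and 409 CPM in KO Tau (log2 fold change -0.48). Kcnma1, the large-conductance calcium-activated potassium channel, was at 97.4, 109 and 85.2 CPM and 72.3, 73.7 and 76.1 CPM (-0.44), and Slc8a1, a sodium-calcium exchanger, at 315, 302 and 297 CPM and 224, 267 and 241 CPM (-0.37). Cntnap1 and Cntnap2, which organise the axon around the node of Ranvier, had log2 fold changes of -0.32 and -0.43. Irs2, an adaptor of insulin and IGF1 receptors, was at 53.4, 33.5 and 51.7 CPM and 24.7, 27.1 and 31.4 CPM (-0.78), and Frzb, a secreted Wnt antagonist, at 30.2, 23.7 and 18.7 CPM and 10.3, 13.2 and 13.9 CPM, without overlap.

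**Figure D4:**
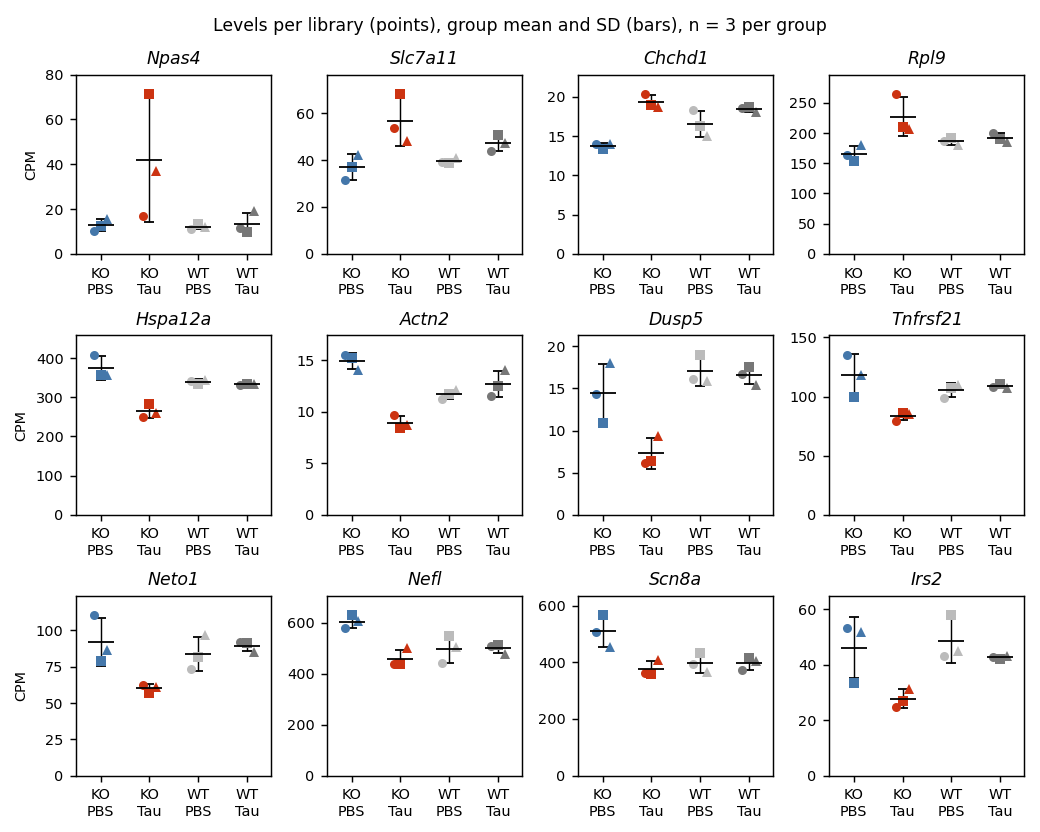
CPM (y axis, from 0) of 12 genes in the 12 male libraries by group, with points for libraries and bars for the group mean and SD (n = 3). Npas4, Slc7a11, Chchd1 and Rpl9 are higher in all KO Tau than in all KO PBS libraries and the other 8 lower. Hspa12a runs from 357 to 409 CPM in KO PBS and from 250 to 282 CPM in KO Tau.

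Only 3 genes were called higher by DESeq2. Npas4, an activity-dependent transcription factor of neurons (ENSMUSG00000045903.9, minus strand of chromosome 19 from 4984355 to 4990316), was at 10.4, 12.5 and 15.7 CPM in KO PBS and 16.8, 71.4 and 37.0 CPM in KO Tau. KO Tau 711 was within the WT range of 9.75 to 19.0 CPM, while 712 and 713 were above it. The log2 fold change was 1.65 (SE 0.42, edgeR FDR 0.550, DESeq2 adjusted p 0.0290), and it ran from 0.90 to 2.18 over the left-out libraries.

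Slc7a11, the cystine-glutamate exchanger that supplies cystine for glutathione, was at 31.4, 37.2 and 42.3 CPM in KO PBS and 53.4, 68.2 and 48.1 CPM in KO Tau (log2 fold change 0.57, SE 0.13, DESeq2 adjusted p 0.0451). Chchd1, a protein of the mitochondrial ribosome, was at 13.9, 13.4 and 14.0 CPM and 20.4, 19.0 and 18.7 CPM (0.44, SE 0.09, DESeq2 adjusted p 0.0414). For Chchd1 all KO PBS libraries were below and all KO Tau libraries above every WT library, of which the highest was at 18.6 CPM.

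Other genes with the smallest edgeR p among those higher in every KO Tau library were not called by edgeR or DESeq2 on all male libraries. The centrosome gene Cep63 was at 24.0, 25.9 and 24.6 CPM in KO PBS and 32.9, 30.6 and 33.9 CPM in KO Tau, and the progenitor transcription factor Sox21 at 8.52, 5.98 and 10.6 CPM and 16.3, 14.0 and 12.4 CPM. Yap1, the Hippo pathway effector that glia express, was at 16.2, 20.7 and 22.8 CPM and 36.8, 26.0 and 27.7 CPM, and Csad, an enzyme of taurine synthesis, at 19.4, 17.2 and 18.7 CPM and 29.5, 22.7 and 24.9 CPM. Rpl9, Rpl39 and Rpl17 encode proteins of the large ribosomal subunit and had log2 fold changes of 0.41, 0.46 and 0.37. The DESeq2 adjusted p of these 7 genes was between 0.081 and 0.144. With libraries left out or another setting Cep63 was called in 2 of the 39 alternatives, and Sox21, Rpl9 and Rpl17 in 1 each. Counts of ribosomal protein genes are uncertain, since near-identical pseudogene copies can share their reads.

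Promoters of the activity-regulated genes that differed in opposite directions, Npas4 and Dusp5, are shown because both are read out as targets of neuronal activity. The 250 bases before the RefSeq start are given 5′ to 3′ on the gene's strand (RefSeq, GRCm38.p6), with capitals for the CRE half-site TGACG on either strand and for CArG boxes, the serum response element core. Npas4 is from chr19:4989972-4990221 (minus strand) and Dusp5 from chr19:53528895-53529144 (plus strand). The gene positions given above are from GENCODE and start further upstream. The Npas4 window thus lies within that gene span, and the Dusp5 window runs into it.
Npas4: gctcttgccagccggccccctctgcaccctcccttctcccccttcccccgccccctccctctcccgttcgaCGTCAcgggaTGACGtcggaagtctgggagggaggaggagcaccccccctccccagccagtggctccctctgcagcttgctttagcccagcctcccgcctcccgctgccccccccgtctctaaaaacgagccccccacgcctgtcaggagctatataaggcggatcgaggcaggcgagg
Dusp5: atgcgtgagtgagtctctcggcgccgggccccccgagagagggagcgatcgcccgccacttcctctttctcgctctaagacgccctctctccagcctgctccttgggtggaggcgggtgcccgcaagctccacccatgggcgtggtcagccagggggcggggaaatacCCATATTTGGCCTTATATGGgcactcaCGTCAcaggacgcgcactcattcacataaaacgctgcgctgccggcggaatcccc
The Npas4 window held 2 CRE half-sites and 0 CArG boxes, and the Dusp5 window 1 CRE half-site and 2 adjacent CArG boxes. Of all 32851 promoter windows of that length, 17.8% held a CRE half-site and 1.47% a CArG box. The motifs do not overlap, and a match is a description of the letters only.

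Immediate early genes, the transcription factors and effectors that neurons switch on within minutes of activity, lay on both sides. Of 30 tested members 2 were higher and 4 lower at an unadjusted p under 0.05, against 3.54% and 4.42% of all genes, and the median log2 fold change was -0.10 (all genes 0.00). Sik1, a kinase that feeds back on CREB coactivators, was at 12.3, 11.2 and 14.4 CPM in KO PBS and 5.74 CPM in KO Tau 711, 9.54 CPM in 712 and between those values in 713 (-0.75), with every KO Tau library below the WT range of 14.0 to 20.1 CPM. Arc, the synaptic plasticity gene, was at 261, 345 and 301 CPM and 150, 342 and 228 CPM (-0.38), so it overlapped. Npas4 was the only member called by DESeq2. Without 711 the list had 6 higher and 2 lower members at that p, without 712 it had 1 and 7, and without 752 it had 1 and 8. Over all genes tested in each setting, the higher and lower ones were 701 and 1052 without 711. They were 806 and 642 without 712, and 793 and 1221 without 752.

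The median fold changes of the dentate, CA1, CA2 and CA3 lists were all below 0 with every library in. Without 751 the dentate median was 0.54 and the CA1 median 0.18. The dentate median was 0.01 without 712 or 713, and the CA1 median was 0.01 without 753. CA3 pyramidal cell markers were below 0 in 10 of 10 genes, 3 of them at an unadjusted p under 0.05, against 4.42% of all genes, with a median log2 fold change of -0.43. On only the 6 KO libraries 0 had such a p (median -0.42). Grik4, the kainate receptor subunit that marks CA3, was at 73.0, 32.5 and 70.8 CPM in KO PBS and 43.2, 29.8 and 38.2 CPM in KO Tau (-0.71, SE 0.25, edgeR FDR 0.550), and library 752 fell among the Tau libraries. Without 752 the CA3 list had 7 members at that p and a median of -0.64. Over the genes tested on the 12 libraries the lower ones then went from 667 to 1213. Without 711 the CA3 list had 5, without 712 it had 2, and without 751 or 753 it had 0. Of 15 dentate and 10 CA1 markers 0 had an unadjusted p under 0.05 (medians -0.09 and -0.02), and of 8 CA2 markers 1 was higher, Sostdc1, at 23.3 CPM in library 713 and 0.665 to 3.30 CPM in the others. Of 7 tested Cajal-Retzius markers 7 were below 0 (median -0.18), and 0 had such a p. Without 752 the median was -0.43 with 2 lower at that p, and without 753 it was 0.0. Reln, the secreted signal of those cells and of interneurons, was at 56.4, 64.7 and 66.0 CPM and 34.8, 91.4 and 65.5 CPM.

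Of the lists of neighbouring tissue, the striatal and choroid plexus lists each followed mainly a single library. The neocortex list was high in 752, 712 and 713. Of its 15 markers 0 had an unadjusted p under 0.05 (median 0.11), and without 752 7 were higher (median 0.87). All 14 tested striatal markers were below 0, with a median of -0.93. Of these, 6 had an unadjusted p under 0.05, against 4.42% of all genes lower at that p. Without 752 the median was 0.34, with 1 higher and 2 lower, and on only the 6 KO libraries 2 were lower. Drd2, the dopamine D2 receptor, was at 2.84, 12.8 and 1.60 CPM in KO PBS and 1.39, 1.56 and 0.659 CPM in KO Tau (-2.30), and Pde10a, a striatal phosphodiesterase, at 96.9, 205 and 80.8 CPM and 75.7, 57.3 and 64.2 CPM. All 14 choroid plexus markers were above 0, 10 at that p against 3.54% of all genes, with a median of 2.83. Only in 1 of them were the groups without overlap, against 6.16% of all genes. Without 713 the median was 0.17 and 0 had such a p, and without 751 or 752 the count was 6 or 5. On only the 6 KO libraries it was 6 of 13. The fold changes of Ttr (3.92), Slc4a5 (3.91) and Aqp1 (3.68) belong to this list.

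Glial lists showed few differences. Of all tested genes, 3.54% were higher at an unadjusted p under 0.05. Of 12 astrocyte markers 1 was higher at an unadjusted p under 0.05 (median 0.22), the transcription factor Sox9, at 30.0, 22.6 and 32.3 CPM in KO PBS and 52.7, 35.5 and 33.6 CPM in KO Tau (0.47). Without 711, the library with the highest astrocyte sum, the list median was -0.01. Of 14 reactive astrocyte genes and 15 oligodendrocyte markers 0 had such a p (medians 0.06 and -0.07). Gfap, the astrocyte intermediate filament, was at 540, 156 and 705 CPM and 962, 271 and 392 CPM, with no separation of the groups.

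Few microglial and interferon genes differed. At an unadjusted p under 0.05, 3.54% of all genes were higher. Of 14 homeostatic microglia genes 1 was higher, the purine receptor gene P2ry13, at 10.3, 10.5 and 11.8 CPM in KO PBS and 16.6, 12.1 and 14.2 CPM in KO Tau (0.35). Of 17 tested disease-associated microglia genes 1 was higher, Cd63, a tetraspanin of late endosomes, at 47.9, 43.3 and 63.9 CPM and 87.4, 64.1 and 79.4 CPM (0.53), and Cd63 is not specific to microglia. Medians were 0.20 and 0.24, and without 711 they were 0.02 and 0.09. Without 753 the counts were 5 and 6, and without 712 they were 2 and 6. Of 17 interferon response genes 0 had an unadjusted p under 0.05 (median 0.02).

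Synaptic genes with an unadjusted p under 0.05 were on the lower side. Of 16 AMPA, NMDA and kainate receptor subunits 4 were lower and 0 higher at that p, against 4.42% and 3.54% of all genes (median -0.14), and that count was 1 without 751 or 712 and 6 without 752. Grin1, the obligatory NMDA receptor subunit, was at 383, 388 and 408 CPM in KO PBS and 286, 323 and 375 CPM in KO Tau (-0.31, SE 0.10), without overlap. Of 21 vesicle release genes 5 were lower (median -0.21), among them the priming factor Unc13a at 472, 539 and 460 CPM and 429, 336 and 427 CPM (-0.35) and the active zone gene Rims1 at 70.4, 109 and 72.9 CPM and 62.9, 65.0 and 67.1 CPM (-0.42). That vesicle count was 1 without 752 or 712, without 711 the median was -0.07, and without both 711 and 752 it was 0.06 with 3 higher and 4 lower. On only the 6 KO libraries 0 receptor and 0 vesicle genes had such a p. Of 16 postsynaptic scaffold genes 2 were lower (median -0.05), with 4 and a median of -0.20 without 711 and 1 without 751, 712 or 713, such as Dlgap2 at 69.7, 70.0 and 66.9 CPM and 61.8, 50.4 and 58.8 CPM (-0.32).

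Genes tied to tau and to acetyl-CoA showed little. Mapt, the mouse tau gene whose product the seeds recruit, was at 613, 641 and 652 CPM in KO PBS and 567, 729 and 665 CPM in KO Tau (-0.00, SE 0.10, edgeR FDR 0.993). Of 30 tau kinases and phosphatases 1 had an unadjusted p under 0.05, Ttbk2, a tau tubulin kinase, at 102, 132 and 99.3 CPM and 90.2, 104 and 95.0 CPM (-0.25), and of 15 microtubule-associated protein genes 0 did. Of 17 enzymes that make acetyl-CoA 0 did (median -0.01). Pdha1, a subunit of pyruvate dehydrogenase, was lower in every Tau library at 222, 231 and 232 CPM and 188, 218 and 212 CPM (-0.19, SE 0.09). Of 24 histone acetyltransferases and deacetylases 0 did (median 0.03), and Kat2a, an acetyltransferase, was at 77.9, 83.4 and 78.8 CPM and 64.0, 77.2 and 76.7 CPM (-0.19).

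Lipid synthesis draws on cytosolic acetyl-CoA. Of 25 sterol and fatty acid synthesis genes 4 were lower and 0 higher at an unadjusted p under 0.05 (median -0.15). Of all genes, 4.42% were lower and 3.54% higher. The lower count of the list ran from 2 without 711 to 7 without 712 and was 1 on only the 6 KO libraries. Over all genes tested in each setting, the lower ones went from 667 to 1052, 642 and 212 in that order. Acaca, the carboxylase that commits acetyl-CoA to fatty acids, was at 50.2, 53.5 and 55.4 CPM in KO PBS and 42.3, 45.4 and 49.7 CPM in KO Tau (-0.26, SE 0.07), and Fasn, the fatty acid synthase, at 436, 382 and 473 CPM and 379, 321 and 368 CPM (-0.32, SE 0.11). Both were without overlap, and neither passed the edgeR FDR (0.550 each) or DESeq2 (0.204 and 0.249). Among 14 glucocorticoid response genes 3 were lower, against 4.42% of all genes (median -0.18), and without 753 1 was lower and 1 higher. On only the 6 KO libraries 1 was lower. The list includes the clock gene Per1 at 88.4, 84.1 and 95.5 CPM and 59.5, 78.8 and 81.9 CPM (-0.33). Of 20 stress response genes 1 was lower, Sesn2, a sestrin that restrains mTORC1, at 19.1, 16.4 and 17.5 CPM and 12.6, 12.9 and 14.1 CPM (-0.47, DESeq2 adjusted p 0.0498). Of 9 Rfx family genes 0 had such a p, and Rfx5 had a log2 fold change of 0.04 (SE 0.10).

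Most ribosomal protein and oxidative phosphorylation genes had values above 0. Of 74 tested ribosomal protein genes 73 were above 0 and 47 were higher at an unadjusted p under 0.05, against 3.54% of all genes (median 0.32), and in 37 the groups did not overlap, against 6.16% of all genes. Their sum was highest in 711, and without that library 16 had such a p and the median was 0.14. Without 752 these were 18 and 0.26, and without 751 they were 30 and 0.33. On only the 6 KO libraries 9 of 73 had such a p (median 0.33). Of 34 oxidative phosphorylation genes 29 were above 0, 10 at that p (median 0.13). The ATP synthase subunit gene Atp5e was at 74.2, 69.7 and 81.7 CPM in KO PBS and 126, 94.8 and 88.1 CPM in KO Tau (0.41), and the cytochrome oxidase gene Cox4i1 at 506, 569 and 598 CPM and 838, 666 and 651 CPM (0.32). Without 711, without 751 or on only the 6 KO libraries that count was 1.

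Of 11 tested nuclear-retained RNAs 2 were higher at an unadjusted p under 0.05, against 3.54% of all genes (median 0.47). That count was 7 without 712 and 5 without 713, without 711 it was 1 with 1 lower, and on only the 6 KO libraries it was 1. Kcnq1ot1, an imprinted antisense RNA, was at 8.52, 10.2 and 8.28 CPM in KO PBS and 18.4, 12.8 and 13.9 CPM in KO Tau (0.70), and Meg3 at 840, 1138 and 1230 CPM and 2612, 1173 and 1496 CPM (0.68). Meg3 overlapped between the groups, and without 711 the list median was 0.07.

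**Figure D5:**
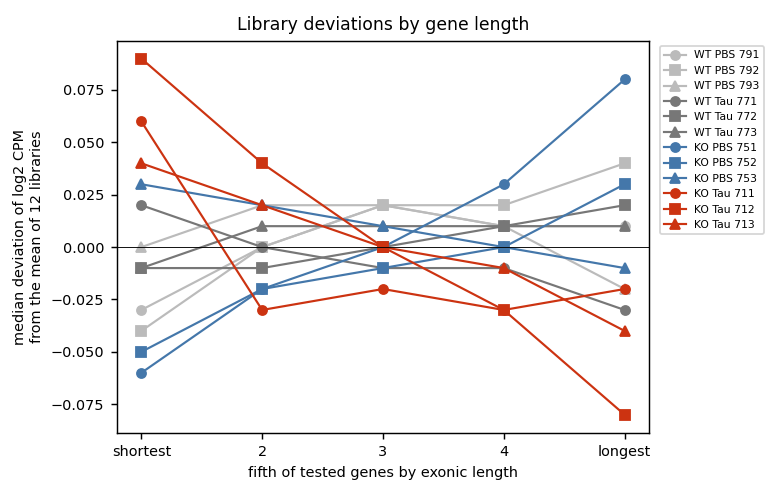
Median deviation of log2 CPM from the mean of the 12 male libraries (y axis) for tested genes in 5 equal groups by exonic length (x axis, shortest to longest), a line for each library. The 3 KO Tau lines start above 0 and end below it, and those of KO PBS 751 and 752 start below 0 and end above it.

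The direction of a difference went with gene length. The median exonic length of all tested genes was 4431 bases. It was 2891 bases in genes higher and 6779 bases in genes lower at an unadjusted p under 0.05, and 8232 bases in the 34 lower DESeq2 calls. Over 5 equal groups of genes from shortest to longest, the median log2 fold change was 0.09, 0.03, -0.00, -0.03 and -0.08 in KO, and in WT it was 0.03 in the shortest and -0.01 in the longest. Per library, the value of the shortest group minus the longest was 0.07, 0.16 and 0.08 in KO Tau 711, 712 and 713, -0.15, -0.08 and 0.04 in KO PBS 751, 752 and 753, and -0.08 to 0.05 in WT. With a trend on length removed from each library, a step added after seeing the data, the genes at an unadjusted p under 0.05 were 375 higher and 650 lower, oxidative phosphorylation had a median of 0.01 with 2 such genes, and ribosomal protein genes a median of 0.25 with 20. The part of length in the named genes was not tested further.

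The interaction term of the same fit asked if the response to Tau depended on genotype. Here edgeR called 0 of 15098 genes (0% called), 631 (4.18%) had an unadjusted p under 0.05, and the count was 0 by DESeq2 and by voom. Without KO PBS 752 DESeq2 called 76, without 753 17, without KO Tau 711 3 and without 712 1. Tau against PBS in WT compares other libraries but shares the spread estimated in the fit, and it gave 281 genes at an unadjusted p under 0.05 (1.86%) against 1201 in KO. By voom, which weights each library, these counts were 1351 and 1644, so their ratio depends on how the spread is shared. Of the edgeR genes, 31 were in both lists, which is 2.58% of the KO list and 11.0% of the WT list. In WT, all Tau libraries were above all PBS libraries in 6.84% of genes and below in 5.4%. The absolute log2 fold change had a median of 0.14 across genes in KO and 0.09 in WT, and 52.1% of genes had the same sign.

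The genes called by DESeq2 in KO had small values in WT. Of the 34 lower genes, 17 were below 0 in WT Tau against WT PBS, and the median was 0.00. The interaction was -0.50 for Hspa12a, -0.89 for Actn2, -0.96 for Dusp5 and 1.53 for Npas4, each with an edgeR FDR of 0.996, so a difference between genotypes was not shown for any of them. Since the genes were chosen on the KO comparison, the size of these interactions is a description.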

How the data were processed

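Poly(A) RNA from 1 mm slices of dorsal hippocampus was sequenced, and the deposited values are raw counts per gene symbol. Per the labels and the study's methods, the authors aligned reads to GRCm38 with STAR 2.5.2 and counted exonic reads with HTSeq 0.9.1 in reverse-stranded mode, with no normalization and with the annotation release not stated. The DESeq2 analysis of the study used fewer KO Tau libraries than the 3 given here, without saying which one it left out, and all 3 were used.

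Groups came from the labels, which call the samples of a group biological replicates. Tau against PBS in KO, and the genotype by treatment interaction, were tested on the 12 male libraries by edgeR 4.0.16 in R 4.3.3, with its quasi-likelihood test (4 group means, TMM factors, filterByExpr with a minimum count of 10 and a total of 15, Benjamini-Hochberg FDR 0.05). SD and list scores used log2 CPM with a prior count of 2. Alternatives were DESeq2 1.42.0, voom in limma 3.58.1, RLE factors, every gene with at least 1 count, other sets of libraries, 1 surrogate variable (sva 3.50.0), dentate and choroid plexus scores as covariates, and left-out libraries. Scripts were tested on simulated data. Genes without a DESeq2 adjusted p were left out of its counts.

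Lengths and positions came from GENCODE M21 (98.5% of 24498 symbols found; 15000 of 15098 tested genes with a length). Members and gene lists were chosen with earlier results of these data known. Named were Acss2, Mapt, Npas4, Rfx3 and Rfx5, up to 10 genes in each direction with the smallest edgeR p among those without overlap and up to 10 by DESeq2 adjusted p (predicted genes left out), the 6 most variable genes of each KO group (1 of them is not reported here), and up to 4 members of each list. Genes named as markers of a field or tissue are members of those lists and are given to describe libraries.

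Intervals of counting error are not given, since the spread between libraries exceeds them. The limit that a count of 0 allows, 3 counts, was at most 0.189 CPM in a KO library.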

Additional observations from a re-analysis of the deposited data

How the results depend on the processing

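For Tau against PBS in KO males, edgeR called 0 genes with TMM or RLE factors, with every gene of at least 1 count, on the 6 KO or all 17 libraries, with the dentate and choroid plexus scores as covariates and with the length trend removed, and voom called 0. DESeq2 called 37 and a surrogate variable 1. At an unadjusted p under 0.05 the count was 1201 on the 12 libraries and 367 on the 6 KO libraries. Over left-out libraries and pairs (the pairs and the length trend were chosen after seeing the data), by edgeR or DESeq2, the count ran from 0 to 1577, and for the interaction from 0 to 1044. These counts rest on which libraries enter, and the cause was not tested. Among 58 genes with a fold change, 5 reversed in some setting. Acss2 ran from -0.15 to 0.48 over left-out libraries, Mapt from -0.10 to 0.09, Rfx3 from -0.86 to 0.95, Rfx5 from -0.11 to 0.13, and Ttr from 0.13 to 4.96. Mapt was 0.00 on the 6 KO libraries and with both covariates, 0.04 by voom, 0.02 with the choroid plexus covariate and 0.03 with the length trend removed. Rfx3 was 0.18 with a surrogate variable, 0.07 with the dentate covariate, 0.21 with both and 0.03 with the length trend removed. Rfx5 was -0.02 by voom. Ttr was -0.06 with the choroid plexus covariate and -0.02 with both. The within-group SD (median) was 0.172 in KO PBS, 0.0855 in WT PBS and 0.0977 in WT Tau for genes of at least 5 CPM. With 1 library left out it ran from 0.146 (without 752) to 0.183 in KO PBS, from 0.107 (without 711) to 0.251 in KO Tau, from 0.0819 to 0.092 in WT PBS and from 0.0907 to 0.1 in WT Tau.

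No paired analysis was possible because the groups compared share no replicate numbers. The 3 libraries a group, the spread between them and the unequal tissue content limit what this comparison can show. A gene that passed no test here is not shown to be unchanged. No covariate for cortex or striatum content was run.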
